A study of Mus musculus with 60 samples.

Results

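Circular RNAs (circRNAs) listed in at least 2 of the heart, kidney, liver and spleen tables and missing from the brain table of the same mice numbered 223, of 2799 circRNAs listed in any organ. They were chosen by their exact row name, which gives the chromosome and the first and last base of the circle, and are called peripheral circRNAs here. Each table had been filtered for low expression by the authors, so a circRNA that is not listed in an organ is not shown to be absent from it. Listing depends on abundance, so the abundances below are described and not tested.

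A circRNA arises when a downstream splice donor is joined back to an upstream acceptor, which closes the transcript into a ring without free ends. Such rings resist RNase R, an exonuclease that digests linear RNA, and are recognised by reads across the back-splice junction. Brain is known for its many circRNAs. Ftsj1, an X-linked gene, encodes a tRNA 2'-O-methyltransferase.

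The study compared mice labelled Ftsj1_DF, read as Ftsj1-deficient from the design text, with wild-type (WT) mice in 5 organs. There were 3 male mice of 4 months per genotype, and the same 6 mice gave whole brain, heart, kidney, liver and spleen. The allele behind the deficiency and the strain were not given in the sources used here. Of the 6 mice, 4 were brothers and the other 2 were brothers too, and each set held as many mice of either genotype. Each of the 30 libraries went through 2 sequencing batches, since read numbers were low in the first, for 60 samples in all. RNA of whole tissue was depleted of ribosomal RNA, polyadenylated and digested with RNase R before sequencing. In whole tissue, fewer cells that make a circRNA and less of it per cell cannot be told apart. Each organ's table gives a mean normalized count over both genotypes, a log2 fold change between the genotypes with its standard error (SE), and p-values of the authors' DESeq2 test. The numerator genotype was not given in the sources used here, so signs are given as deposited. Libraries were not analysed here one by one, so depth is unknown and neither an SD between mice nor an overlap of the groups can be given.

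Kidney and liver shared the most peripheral circRNAs. Of the 223, 164 (73.5%) stood in 2 of the authors' deposited tables, 42 (18.8%) in 3 and 17 (7.62%) in 4. Kidney and liver alone held 83, heart and kidney alone 41, and heart, kidney and liver without spleen 25. Heart and liver alone held 22, and the pairs with spleen held 9 (heart), 7 (liver) and 2 (kidney). Those in spleen and 2 other organs numbered 8 with heart and liver, 8 with kidney and liver, and 1 with heart and kidney. Peripheral circRNAs made up a like share of each table: 123 of 664 circRNAs in heart (18.5%), 177 of 996 in kidney (17.8%), 170 of 900 in liver (18.9%) and 52 of 308 in spleen (16.9%). Spleen, with the smallest table, listed the fewest of them.

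**Figure D1:**
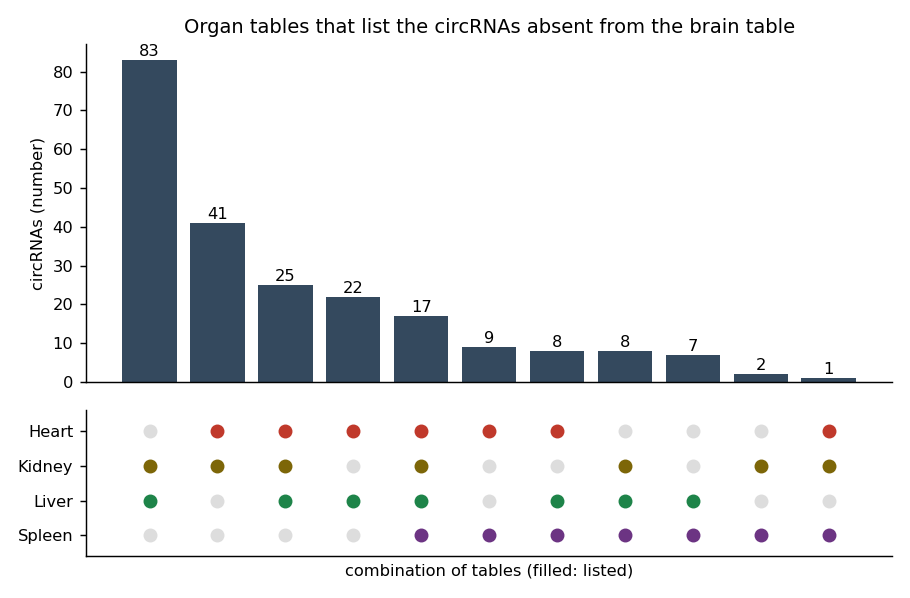
Number of peripheral circRNAs (vertical axis) in each combination of organ tables (columns, filled dots mark the organs that list them). Kidney with liver is the tallest bar at 83, and 17 circRNAs stood in all 4 peripheral tables.

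Peripheral circRNAs were on the whole less abundant than those that brain also listed. The authors' deposited tables gave them a median of 2.19 normalized counts in heart, 2.51 in kidney, 8.44 for liver and 1.95 for spleen. CircRNAs of the same tables that brain also listed had 3.74, 4.65, 11.97 and 4.09 as medians of the authors' deposited tables. Those listed in that organ alone had 1.82, 2.18, 6.86 and 1.52 in the authors' deposited tables, so the peripheral circRNAs lay between both in each organ. Levels were normalized within each table and are not compared in size between organs. Peripheral circRNAs held 11.3% of the summed mean normalized count of the authors' deposited heart table, 14.7% in kidney, 14.3% in liver and 6.4% in spleen, less than their share of the rows.

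At the threshold of the rule stand the circRNAs in exactly 2 tables, just inside, and those in 1 peripheral table only, just outside. Those just inside had 2.06 (heart), 2.36 (kidney), 7.24 (liver) and 1.78 (spleen) as medians of the authors' deposited tables, against 1.82, 2.18, 6.86 and 1.52 just outside. Those in 3 or 4 tables had 2.76, 3.39, 11.2 and 2.14 in the authors' deposited tables. In each organ the median was higher the more tables listed the circRNAs.

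**Figure D2:**
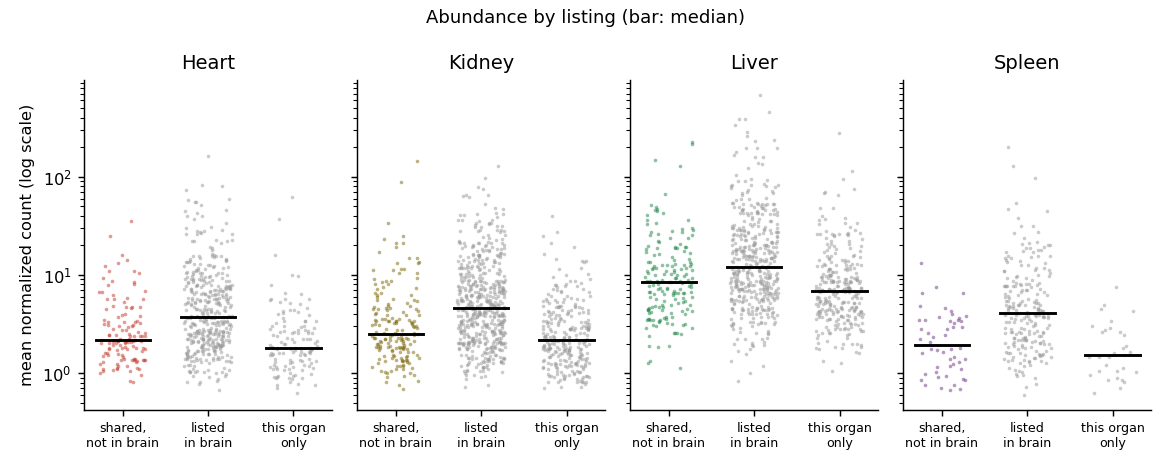
Mean normalized count (vertical axis, log scale) of each circRNA by organ, for peripheral circRNAs (coloured), circRNAs also listed in brain and circRNAs of that organ only (grey), with bars at the medians. In each organ the peripheral circRNAs have a median below that of the circRNAs also listed in brain.

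A few peripheral circRNAs were nevertheless among the most abundant of an organ. The circRNA on chromosome 5, 89528172 to 89537469 (GRCm39, as for all positions here), had the highest mean normalized count of the authors' deposited kidney table, 145.9, but ranked 632 in liver at 5.72. A second one on that chromosome, 135150360 to 135152871, was abundant in 3 organs of the authors' deposited tables, with 226.2 in liver (rank 11), 88.7 in kidney (rank 4) and 11.01 in heart (rank 75). Next in liver of the authors' deposited table came chromosome 11, 116080241 to 116080401, at 217.6, followed by chromosome 11, 16831464 to 16833613, at 146.9 and chromosome 3, 157624063 to 157626673, at 128.4. In kidney these 3 ranked only 281, 361 and 158 of 996.

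In heart the leader was chromosome 19, 37021922 to 37045691, at 35.07 and rank 18 of the authors' deposited table. Chromosome 9, 14482919 to 14486735, had 24.6 in heart, 10.4 in kidney and 8.87 in liver in the authors' deposited tables. The authors' deposited table of heart next gave chromosome 7, 142912447 to 142917431, at 16.0, with 21.0 in kidney and 7.67 in liver. Spleen had no peripheral circRNA among its 25 most abundant, compared with 1 in heart, 2 in kidney and 4 in liver. The spleen leader was chromosome 6, 98980161 to 98987018, at 13.2 and rank 35 of the authors' deposited table. In heart the same circRNA ranked 653 of 664, at 0.82 in the authors' deposited table.

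Rank thus varied widely between the organs that listed the same circRNA. Taking abundance as the percentile within each table, the range of 1 circRNA over its organs had a median of 31.95 percentile points, quartiles of 13.9 and 48.9, and a maximum of 91.8. A circRNA on chromosome 1, 20573166 to 20579336, ranked 62 in kidney at 20.95 and 882 of 900 in liver at 1.82 in the authors' deposited tables. Another on chromosome 8, 68194413 to 68210917, ranked 60 in heart and 892 in liver, with 13.2 and 1.33 in the authors' deposited tables. The highest percentile fell in liver for 91 of the 170 peripheral circRNAs it listed, in kidney for 73 of 177, in heart for 50 of 123 and in spleen for 9 of 52.

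Abundance was weakly related between organs among the peripheral circRNAs. Spearman's rho of the mean normalized counts across circRNAs was 0.37 for heart and kidney (n = 84), 0.11 for kidney and liver (n = 133) and -0.03 for heart and liver (n = 72). With spleen it was 0.00 for heart (n = 35), 0.03 for kidney (n = 28) and 0.11 for liver (n = 40). Among the circRNAs also listed in brain the same 6 values lay between 0.43 (n = 325, kidney and liver) and 0.61 (n = 172, heart and spleen). These are descriptions across circRNAs that share libraries and a lower limit of abundance, and circRNAs are not independent replicates. The abundance of peripheral circRNAs also varied less: in heart their quartiles were 1.53 and 3.82 mean normalized counts, against 2.09 and 7.74 for those also listed in brain, in the authors' deposited table. The part of this narrower range in the lower rho was not tested.

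The 17 circRNAs listed in all 4 peripheral organs show how the order of organs changed from 1 circRNA to the next. Chromosome 17, 57726322 to 57727524, had 66.4 in liver, 6.82 in heart, 6.58 in spleen and 3.87 in kidney in the authors' deposited tables. Chromosome 7, 89838358 to 89846228, had 7.87 (heart), 13.3 (kidney), 3.01 (liver) and 3.46 (spleen) in the authors' deposited tables, with rank 122 of 996 in kidney and rank 825 of 900 in liver. For chromosome 14, 60944163 to 60947018, the authors' deposited tables gave 3.33, 9.29, 30.2 and 0.70 in that order, which is rank 132 of 900 in liver and rank 305 of 308 in spleen. For chromosome 16, 8463233 to 8464128, they were 1.37, 1.48, 25.8 and 4.55 in the authors' deposited tables. By rank within each table the first of these stood highest in liver and heart, the second in kidney and heart, and the last in liver and spleen.

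The positions of the peripheral circRNAs were compared with those of the brain table. Of the 223, 27 (12.1%) shared a start or an end with a circRNA of the brain table, 6 more overlapped one, and 190 (85.2%) did neither. Of the 720 circRNAs in 1 peripheral organ only, 17.9% were related to a brain circRNA in either way and 82.1% were not, a share close to that of the peripheral circRNAs. Of the 449 circRNAs listed in brain and in 2 or more peripheral organs, 37.6% were related to another circRNA of the brain table. With other circRNAs of the heart, kidney, liver and spleen tables, 30.5% of the peripheral circRNAs shared an end or overlapped, and 69.5% did not. Host genes and exons are not given, since no annotation of GRCm39 was used, so circRNAs of 1 gene that do not overlap count here as unrelated.

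A pair of peripheral circRNAs differed from a brain circRNA by a few bases at the start and none at the end. Chromosome 4, 130445468 to 130446662, had a brain neighbour that started 3 bases before it, at 130445465, with a mean normalized count of 24.8 in the authors' deposited brain table. Chromosome 6, 134039031 to 134043428, had one that started 4 bases before it, at 134039027, with 12.2 in the authors' deposited brain table. With ends matched within 5 bases both would count as listed in brain, which leaves 221 peripheral circRNAs.

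The 223 circRNAs fell into 213 loci of overlapping peripheral circRNAs, of which 205 held 1, 6 held 2 and 2 held 3. On chromosome 6, 3 circRNAs ended at 65878843 and started at 65839899, 65846165 and 65858033. All 3 were listed in heart and kidney only, and no other circRNA of any table lay there. Their mean normalized counts in the authors' deposited tables were 1.09, 1.36 and 2.13 in heart, and 3.02, 6.46 and 2.39 in kidney, in the order of their starts. The shortest circle was thus the most abundant of them in heart, and the middle one in kidney.

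The other locus of 3 lay on chromosome 8, from 79242215 to 79305386. A pair of its circRNAs shared the start and were listed in kidney and liver, with 1.38 and 34.03 for the one ending at 79257787 and 1.84 and 29.0 for the one ending at 79305386 in the authors' deposited tables. The third started at 79251791, ended at 79257787 like the first, and was listed in heart and spleen instead, at 1.81 and 0.70 in the authors' deposited tables. Circles with a shared end therefore had different organs listed at this locus. On chromosome 5, the abundant circle ending at 135152871 had a short partner that started at 135152504, with 2.06 in heart and 20.6 in liver against 11.01 and 226.2 for the longer one in the authors' deposited tables. On chromosome 19 the heart leader shared its start with a circle ending at 37031774, which the authors' deposited tables gave at 1.10 in heart and 9.22 in liver. Of these, the longer circle was listed in heart and kidney and not in liver.

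Genomic span, the distance from first to last base with introns included, had a median of 4633 bases over the peripheral circRNAs, with quartiles of 1718.5 and 10784.5. The median was 6092.5 over the brain table, 4685 over circRNAs in brain and 2 or more other organs, and 5838.5 over those in 1 peripheral organ only. Spans of 20000 bases or more made up 13.0% of the peripheral circRNAs and 21.3% of the brain table. Among those in 3 or 4 organs there was 1 of 59, against 28 of 164 in exactly 2. The shortest was chromosome 2, 20865782 to 20865921, of 140 bases, listed in heart and liver. The longest was chromosome 15, 33250072 to 33381593, of 131522 bases, listed in heart and kidney. Both had low mean normalized counts in the authors' deposited tables, 1.75 and 6.25 for the shortest and 1.53 and 3.05 for the longest.

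By chromosome, 25 lay on chromosome 7 (11.2%, against 5.82% of all 2799) and 24 on chromosome 11 (10.8%, against 6.0%). Chromosome 1 held 6 (2.69%, against 7.18%). None of the 31 circRNAs of chromosome X, which carries Ftsj1, was a peripheral circRNA. The single circRNA of the mitochondrial genome was one, from 13774 to 13916, listed in heart at 2.55 and in kidney at 3.08 in the authors' deposited tables. In log2 fold change the authors' deposited tables gave it 2.09 (SE 1.87) in heart and 0.02 (SE 1.72) in kidney.

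The main comparison asked whether the circRNAs differed between Ftsj1_DF and WT mice. No peripheral circRNA passed an adjusted p below 0.05 in the authors' DESeq2 test of any organ. Over whole tables that threshold was passed by 0% of 664 circRNAs in heart, 0% of 989 in kidney, 0.17% of 587 in liver and 0% of 292 in spleen. The estimates were wide. The authors' deposited tables gave the peripheral circRNAs a median SE of 1.71 for heart, 1.85 for kidney, 2.11 for liver and 2.07 for spleen, so a typical 95% interval reached 3.35, 3.63, 4.13 and 4.06 log2 units to each side. Differences within these intervals were not detectable, which does not show that levels were alike.

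At an unadjusted p below 0.05 of the authors' DESeq2 test, heart had 3 positive and 0 negative peripheral circRNAs of 123, beside 1.81% positive and 1.05% negative over its table. Kidney had 3 positive and 0 negative of 175 with a p, beside 1.82% and 0%. Liver had 0 positive and 17 negative of 164 with a p, beside 0.453% and 8.61%. Spleen had 1 positive and 0 negative of 52, beside 1.37% and 0.685%. These counts are few, and 24 different circRNAs account for them: none had an unadjusted p below 0.05 in more than 1 organ, and 199 had none. The same overlap was not counted over all shared circRNAs, so its lack is not read as particular to the peripheral ones. The authors' deposited liver table gives no p for 6 peripheral circRNAs and, for 59 others, a p without an adjusted one; 2 in kidney lack a p.

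**Figure D3:**
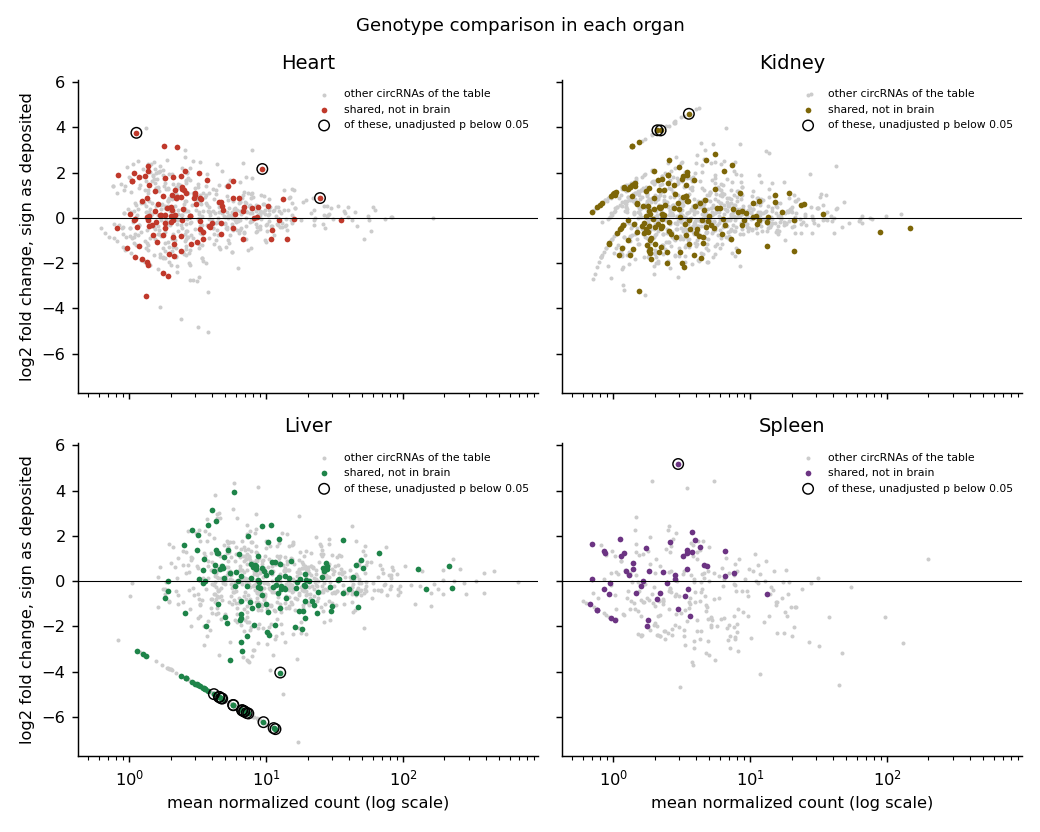
Log2 fold change with its sign as deposited (vertical axis) against mean normalized count (horizontal axis, log scale) in each organ, for peripheral circRNAs (coloured) and the other circRNAs of the table (grey), with rings at an unadjusted p below 0.05. The 17 rings in liver are all negative and 16 of them lie on the curved lower edge of the points.

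Much of the liver count lies on a plateau, where the absolute log2 fold change exceeds log2 of the mean normalized count by more than 2.5, so that the mean sets it. On it stood 32 of the 170 peripheral circRNAs of liver (18.8%), beside 15.0% of the whole table, all negative. Their excess lay between 2.89 and 3.00, and the next liver value stood at 1.38. The plateau held 2 peripheral circRNAs in heart (1.63%, beside 1.05% of the table), 7 in kidney (3.95%, beside 3.21%) and 1 in spleen (1.92%, beside 0.974%). In liver it held 16 of the 17 with an unadjusted p below 0.05, all negative, beside 73 of the 76 negative ones over the whole table. The plateau is defined by the size of the fold change, so this overlap is a description. Values of this form result by arithmetic when nearly all counts of a circRNA come from 1 genotype, and the size printed is then no estimate. The counts were not analysed here, so whether this holds was not tested.

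The smallest p among the peripheral circRNAs of liver was found on chromosome 10, 89309614 to 89319386. The authors' deposited table gave it a mean of 11.7 and a log2 value of -6.54 (SE 1.84), with an adjusted p of 0.061 from the authors' DESeq2 test. Next was chromosome 17, 24652107 to 24653129, which had -6.50 (SE 1.85) with the same adjusted p of 0.061 by DESeq2 in the authors' deposited table. Both lie on the plateau, so these sizes follow the mean count and are not read as estimates of how strongly the circRNAs differed. In kidney the first had 1.10 (SE 1.43) at a mean of 19.2 and the second 0.44 (SE 1.55) at 2.78 in the authors' deposited table. The 1 negative liver circRNA off the plateau with an unadjusted p below 0.05 was chromosome 3, 121585383 to 121590134, for which the authors' deposited table gave -4.04 (SE 1.68; DESeq2 adjusted p = 0.241). Among positive liver values the smallest p was on chromosome 17, 57726322 to 57727524, where the authors' deposited table gave 1.22 (SE 0.71; DESeq2 adjusted p = 0.921).

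The 32 peripheral circRNAs on the liver plateau, all negative there, had values of either sign in the other organs that listed them. Of the 32 on the liver plateau, 29 were listed in kidney, where 19 were positive and 10 negative with a median log2 fold change of 0.51 in the authors' deposited table. Heart listed 10 of them, 6 positive and 4 negative, with a median of 0.27, and spleen 6, 1 positive and 5 negative, with a median of -0.36, in the authors' deposited tables. The other liver circRNAs of the set had medians of 0.09 in kidney, 0.07 in heart and 0.16 in spleen in the authors' deposited tables. None of the 32 had an unadjusted p below 0.05 of the authors' DESeq2 test in another organ. Of the other liver circRNAs of the set, 1 of 104 had one in kidney, 1 of 62 in heart and 0 of 34 in spleen. The lack is therefore not read as particular to the plateau, and with SEs of this size a shared difference was not detectable.

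The circRNA with the smallest p in heart lay on chromosome 8, 48352471 to 48373733. Its log2 value in the authors' deposited table was 2.16 (SE 0.74; DESeq2 adjusted p = 0.794), with 9.34 normalized counts on average. Its kidney value was 0.28 (SE 0.90) at 17.1 in the authors' deposited table. Chromosome 9, 14482919 to 14486735, second in abundance among the peripheral circRNAs of heart, had 0.87 (SE 0.42) there, 0.03 (SE 1.09) in kidney and -0.03 (SE 1.98) in liver in the authors' deposited tables. The negative one with the smallest p was chromosome 2, 76919414 to 76938823, at -0.95 (SE 0.54) and a mean of 14.2 in the authors' deposited heart table. The closest estimate belonged to the heart leader on chromosome 19, at -0.09 (SE 0.37) in the authors' deposited table. It is the only peripheral circRNA entry of any organ with a 95% interval inside a 2-fold change in either direction.

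In kidney all 3 circRNAs below an unadjusted p of 0.05 lay on the plateau, led by chromosome 2, 5928680 to 5937353, at 4.6 (SE 1.91) with 3.56 mean normalized counts by the authors' deposited table. The most abundant kidney circRNA, on chromosome 5, had -0.44 (SE 0.71) in kidney and -5.47 (SE 2.29) on the plateau in liver in the authors' deposited tables. On the same chromosome, the circRNA ending at 135152871 had negative values in all 3 of its organs, -0.62 (SE 0.76) in kidney, -0.53 (SE 0.61) in heart and -0.32 (SE 0.66) in liver in the authors' deposited tables. Each of these intervals includes 0. For spleen the first by p was chromosome 1, 181653187 to 181659797, a plateau entry that the authors' deposited table gave at 5.18 (SE 1.90; DESeq2 adjusted p = 0.998). Its heart and kidney values in the authors' deposited tables were 0.70 (SE 1.06) and -0.81 (SE 1.43).

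In spleen the fold changes differed in median by how many and which tables listed the circRNA. The 52 peripheral circRNAs of spleen had a median log2 fold change of 0.33, and 31 of them (59.6%) were positive in the authors' deposited table. The 225 spleen circRNAs also listed in brain had a median of -0.90, and 55 of them (24.4%) were positive in the authors' deposited table. The 31 listed in spleen only had a median of 1.14, with 24 (77.4%) positive in the authors' deposited table. Among the peripheral circRNAs of spleen, the 18 in exactly 2 tables had a median of 0.49 (72.2% positive) and the 34 in 3 or 4 tables had 0.10 (52.9% positive) in the authors' deposited table. The medians thus ran from spleen only, through 2 and then 3 or 4 tables, to those also listed in brain. The authors' deposited table gives no p for 16 of the 225 also listed in brain, and a p for all 52 peripheral circRNAs. The whole spleen table had a median of -0.55, and 75% of the peripheral circRNAs lay above it.

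The order of the 3 classes in spleen was also there among circRNAs of like abundance, up to a mean of 8. At mean normalized counts below 2 the medians were 0.04 for 26 peripheral circRNAs, -0.74 for 49 also listed in brain and 1.00 for 20 of spleen only in the authors' deposited table. From 2 to 4 they were 0.40 for 19, -1.05 for 62 and 1.57 for 7 in the authors' deposited table. From 4 to 8 they were 0.68 for 6, -1.07 for 57 and 0.81 for 4 in the authors' deposited table, and all 6 peripheral circRNAs were positive. Only 1 peripheral circRNA was above 8, the spleen leader on chromosome 6, where the authors' deposited table gave -0.59 (SE 1.54). Each of these values comes from the same 6 spleen libraries, so the split could not be set against the spread between mice. Single estimates were wide, with 1 of the 52 below an unadjusted p of 0.05 in the authors' DESeq2 test and 0 below an adjusted p of 0.05.

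In the other organs the medians of these classes lay closer together. In heart the medians were 0.14 for peripheral circRNAs, 0.09 for those also listed in brain and 0.27 for those of heart only in the authors' deposited table. In kidney they were 0.19, 0.16 and 0.29, and in liver -0.27, -0.21 and -0.17, in the authors' deposited tables. Shares of positive values were 58.5%, 54.3% and 59.2% in heart, 55.4%, 57.6% and 59.9% in kidney, and 42.9%, 41.3% and 44.6% in liver, in the same order in the authors' deposited tables. Whether the split differs between spleen and the other organs was not tested.

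**Figure D4:**
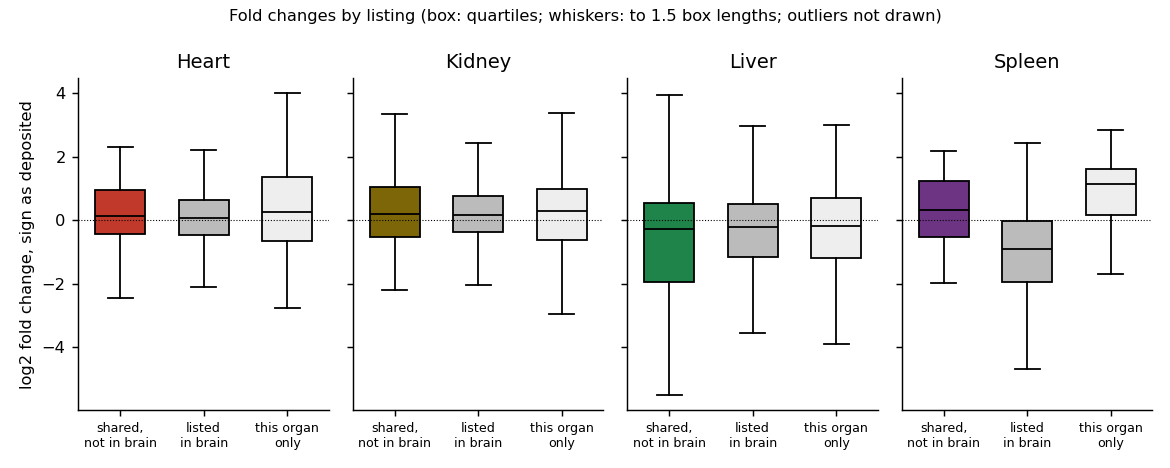
Log2 fold change with its sign as deposited (vertical axis) by organ for peripheral circRNAs (coloured boxes), circRNAs also listed in brain (grey) and circRNAs of that organ only (light), with boxes at the quartiles, lines at the medians, whiskers to 1.5 box lengths and no outliers drawn. In spleen the median is 0.33 for peripheral circRNAs and -0.90 for those also listed in brain, while the other organs' medians lie closer together. Their box edges differ more, as in liver, where the lower quartiles are -1.95 (peripheral), -1.16 (also listed in brain) and -1.19 (liver only).

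The signs of the fold changes were compared over the organs of each circRNA, which share mice. Of the 164 listed in 2 organs, 50 were positive in both and 30 negative in both in the authors' deposited tables (48.8% with 1 sign). Of the 42 in 3 organs, 5 were positive and 6 negative throughout (26.2%). Of the 17 in 4 organs, 0 were positive and 2 negative throughout (11.8%): chromosome 15, 91589309 to 91597065, and chromosome 3, 109470059 to 109485680. The first stood in the authors' deposited tables at -0.92 (SE 1.34) in heart, -0.34 (SE 1.71) in kidney, -2.44 (SE 1.88) in liver and -0.08 (SE 2.37) in spleen. The second had -0.92 (SE 0.61), -0.37 (SE 1.90), -4.65 (SE 2.79) and -0.06 (SE 1.77) in the same order, with its liver value on the plateau, in the authors' deposited tables. All 8 intervals include 0. The share with 1 sign throughout falls as organs are added even when signs are unrelated, so its fall is not read as a result. That share was not counted for the circRNAs also listed in brain. Across circRNAs, Pearson's r of the log2 fold changes lay between -0.10 and 0.11 over the 6 organ pairs, with 28 to 133 circRNAs each, from libraries of the same mice. Over these pairs the share of peripheral circRNAs with the same sign in both organs was 39.3% to 57.1%, beside 47.3% to 58.1% of the circRNAs also listed in brain. These shares show nothing particular to the peripheral circRNAs.

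**Figure D5:**
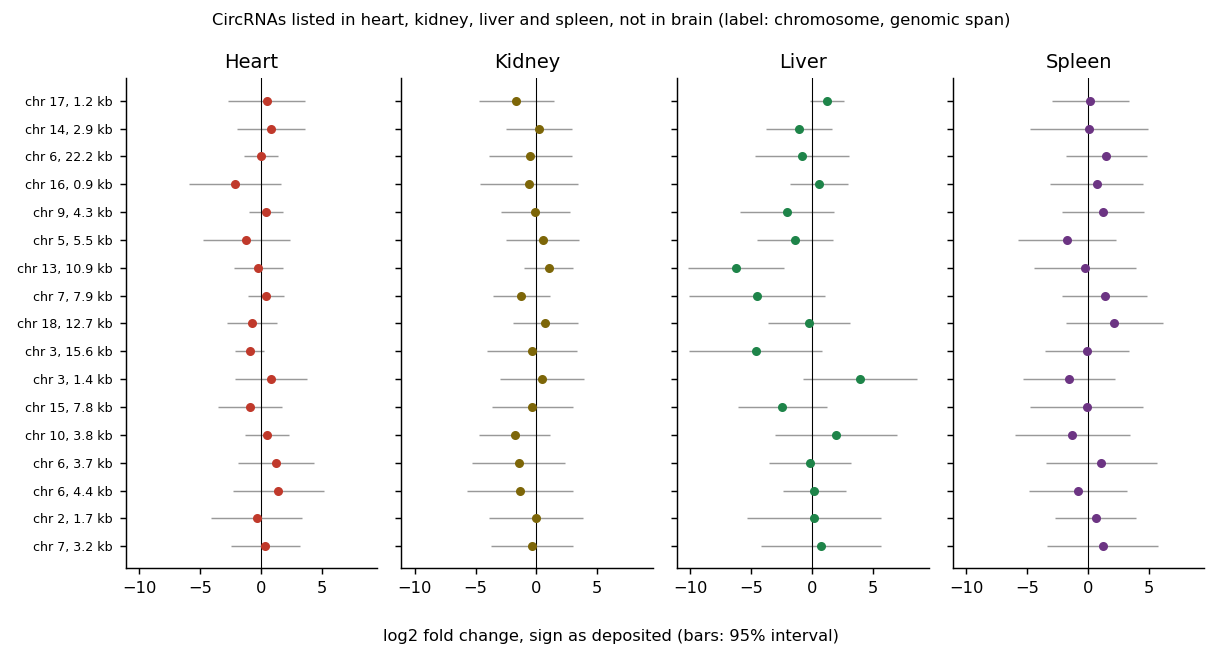
Log2 fold change with its sign as deposited (horizontal axis) and 95% interval of the 17 peripheral circRNAs listed in all 4 organs (rows, by chromosome and genomic span; 1 panel per organ). The liver value of the circRNA on chromosome 13 is the only one whose interval leaves out 0.

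That exception lay on chromosome 13, 38072847 to 38083763, and had -6.23 (SE 2.01; DESeq2 adjusted p = 0.0866) on the liver plateau of the authors' deposited table. Elsewhere the authors' deposited tables gave it -0.21 (SE 1.02) in heart, 1.00 (SE 1.03) in kidney and -0.21 (SE 2.13) in spleen. Its mean normalized counts in the authors' deposited tables were 4.64, 15.0, 9.53 and 1.59 in heart, kidney, liver and spleen.

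Differences between organs were then tested for each circRNA and pair of organs with a two-sided normal test on the authors' deposited estimates. Of 377 pairs of peripheral circRNAs, 0 passed an adjusted p below 0.05 (Benjamini-Hochberg over all 3341 pairs of the 5 tables, of which 0% passed). An unadjusted p below 0.05 was reached by 19 (5.04%), beside 3.44% of all pairs, and came from 14 circRNAs. All pairs include those with brain, which peripheral circRNAs lack, so these shares cover unlike mixes of organ pairs. A liver value entered 17 of the 19, and a plateau value 18. Kidney against liver gave 12 of 126 pairs and heart against liver 4 of 69, and liver had the lower value in all 16. Heart and kidney gave 0 of 83.

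The smallest p of a difference belonged to the circRNA on chromosome 10, 89309614 to 89319386, where the log2 fold change of kidney exceeded that of liver by 7.64 (SE 2.33, normal test, adjusted p = 0.491) between the authors' deposited tables. That on chromosome 13, 38072847 to 38083763, followed with 7.23 (SE 2.26, adjusted p = 0.50). Both differences hold a liver plateau value, so their sizes depend in part on the liver means and are not read as estimates. A typical 95% interval of a difference reached 5.15 log2 units to each side. The organs of 1 mouse are not independent, and their covariance was left out.

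A mean over the organs of each circRNA, weighted by inverse variance, was tested in the same way for 219 peripheral circRNAs. None passed an adjusted p below 0.05 (Benjamini-Hochberg over 969 circRNAs, of which 0% passed), and 4 had an unadjusted p below 0.05 (1.83%, beside 2.48% of all), 2 positive and 2 negative. From the authors' deposited tables the positive means were 3.97 (SE 1.57) for chromosome 2, 5928680 to 5937353, and 1.40 (SE 0.57) for chromosome 8, 48352471 to 48373733. The negative means from the authors' deposited tables were -3.61 (SE 1.47) for chromosome 5, 127721383 to 127741772, and -1.92 (SE 0.90) for chromosome 7, 120490819 to 120491276. The mean on chromosome 2 includes the kidney plateau value of 4.6, and that on chromosome 5 the liver plateau value of -5.75 (SE 2.18), in the authors' deposited tables. Neither size is therefore read as an estimate. Both means cover 2 organs, so with plateau values left out neither could be formed. The other 2 of the 4 held no plateau value, so leaving these values out could not change them. The one on chromosome 7 had -1.69 (SE 1.80) in heart, -2.10 (SE 1.17) in liver and -1.63 (SE 2.30) in spleen by the authors' deposited tables. Each of its 3 intervals includes 0. Choosing by the p of the mean favours values of 1 sign, so their likeness is not read as a result. The one on chromosome 8 rested on its heart value of 2.16 in the authors' deposited table, beside 0.28 in kidney.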

How the data were processed

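The data are the authors' 5 deposited tables of a comparison between the genotypes, 1 per organ. BWA 0.7.17-r1188, DESeq2 and the build GRCm39 are named, without roles, in the submitters' processing notes. How circRNAs were called, counted and filtered, the model, and how batches entered it were not given in the sources used here. A row holds, per the file headers, a mean signal over libraries (the mean normalized count), a log2 fold change with its SE, a test score (the Wald statistic), a p-value and an adjusted p-value, all computed by the authors. The score equalled log2 fold change over SE, and the p-value its two-sided normal tail, in each row that had them. The SD of the authors' deposited Wald scores was 0.84 (heart), 0.68 (kidney), 1.01 (liver) and 0.76 (spleen), where the normal curve has 1. The SEs would be too small had both runs of a library been fitted as separate samples.

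The 223 peripheral circRNAs were found by exact name, and abundance was ranked within each table. Intervals are the estimate ± 1.96 SE (95%). Typical intervals use the median SE. Organ differences and means over organs were tested on the deposited estimates with Benjamini-Hochberg adjustment over all tables, and these steps were checked on simulated data (Python 3.11.15, numpy 2.4.6, pandas 2.3.3, scipy 1.17.1, matplotlib 3.10.9). In the simulation the changes were large, the SEs were made smaller than the real ones and the organs were drawn independently. It therefore checks the code, and not the power or error rates at the real SEs. Named circRNAs were drawn from a rule: those in all 4 organs, the most abundant and the smallest p per organ and direction, the smallest p of the mean and of the difference tests, and loci of 3. Not all that the rule allows are named. The circRNAs with extreme spans or rank ranges, the mitochondrial one and the loci of 2 were added after their values were seen. The set and the lists were chosen with earlier results of these data known. Coordinates are printed as the tables give them, and their base (0 or 1) was not given in the sources used here. As the annotation at hand is of another build, host genes and sequences were not used here, and 12 host gene lists were left out. Alternatives were limits on the mean count, leaving out the plateau, near matching, another threshold, other weights and centring.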

Additional observations from a re-analysis of the deposited data

How the results depend on the processing

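Over 63 alternatives, 44 left the result in place by direction and size, 17 moved it and 2 reversed its direction. Small shifts in size were counted as in place. Counts of 0 could not change under an alternative that only takes entries out, so the tally does not measure how robust the results are. With a mean normalized count of at least 5, the circRNAs with an unadjusted p below 0.05 fell from 3 to 0 in kidney and from 1 to 0 in spleen, the differences between organs from 19 to 4, and the heart median rose from 0.14 to 0.32. At 10 or more, heart kept a count of 1 of 3, kidney 0, liver 3 of 17 and spleen 0. Without the plateau the counts were 0 in kidney, 1 in liver and 0 in spleen, with 1 difference between organs and 2 means over organs instead of 4, and the liver median reversed from -0.27 to 0.0464. The plateau is defined by the fold change and held only negative values in liver, so this alternative could only lower that count and raise that median. It also removed every pair with a plateau value, so the count of differences could only fall too. The 2 means that dropped out each covered 2 organs, so without their plateau value they were not tested again. The 2 that remained held no plateau value, so this alternative could not change them. Unweighted means over organs gave 8. At an adjusted p below 0.1 of the authors' DESeq2 test, liver had 3 in place of 0, beside 17 of the 587 with an adjusted p over its table. All 3 lie on the plateau. Of the 170 peripheral circRNAs of liver, 6 had no p and 59 others no adjusted p, so these could not pass. Requiring 3 or more tables left 59 of 223 circRNAs. Chosen after seeing the data, centring on the table's median turned the share of positive values from 55.4% to 49.7% in kidney and raised it from 59.6% to 75% in spleen. The cause was not tested. The shares of positive values in spleen were 69.2% against 24.4% at a mean of at least 2, and 60.8% against 24.3% with near matching, also chosen after seeing the data. Near matching moved only 2 of the 223 circRNAs, so it could hardly change this contrast and is no check of it. No paired analysis was possible because the tables hold no value per library, and for that reason no replicate could be left out. Depth is unknown, and low mean counts limit most estimates.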
